A study of Mus musculus with 7 samples.

Results

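The genes described here are 7 receptors of sensory neurons, namely Mrgprd, Mrgpra3, Mrgprb4, Mrgprb5, Mrgprx1, Mrgpre and Lpar3. They were taken by gene symbol from a list drawn up with earlier results of these data known, and are 7 of the 54309 gene rows of the expression table, each with a single row. RNA sequencing had been done on 7 samples of lumbar 4 to 6 dorsal root ganglia, which lie next to the spinal cord and hold the cell bodies of sensory neurons. All samples came from C57bl/6 mice labelled male and 6 to 8 weeks old, with a sciatic nerve injury made 72 h before the ganglia were taken. The groups were ZT20 (n = 4) and ZT8 (n = 3), where Zeitgeber time (ZT) counts the hours since lights on, and they differed in the ZT of injury and dissection. The ganglia had been digested with Dispase II, Collagenase Type II and papain, and the cells passed over a bovine serum albumin gradient to enrich neurons, so other ganglion cells could remain. Uninjured samples were not analysed here, so the values describe the difference between times of day after injury and not the effect of injury. The comparison asks whether these receptors were present at different transcript levels at the 2 times.

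Mas-related G protein-coupled receptors (Mrgpr) are a family of peptide, amine and amino acid receptors that in mice is found mostly in small-diameter sensory neurons. Mrgprd, the receptor for beta-alanine, marks the nonpeptidergic nociceptors that innervate the skin, whereas Mrgpra3, the chloroquine receptor, and Mrgprx1, also called Mrgprc11 and the receptor for the itch peptide BAM8-22, mark a smaller set of itch neurons. Mrgprb4 marks unmyelinated skin fibres that respond to stroking, Mrgprb5 is its close relative, and Mrgpre has no settled ligand. Lpar3 is a receptor for lysophosphatidic acid (LPA) and is found in the Mrgprd neurons. Many Mrgpr genes arose by local duplication, so sequencing reads from one gene can match its near copies.

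Read sharing was described from the transcript sequences of the GENCODE M21 annotation (mouse build GRCm38), by asking how many of a gene's stretches of 31 bases also occurred in another gene. In that annotation the 6 Mrgpr genes lie on chromosome 7 and Lpar3 on chromosome 3, and only Mrgpre overlaps another gene, the miRNA gene Gm22064 on the opposite strand. None of the 3114 stretches of Mrgprd occurred elsewhere. The share was 0.619% for Lpar3 and 3.41% for Mrgpre, whose main matches lay outside the Mrgpr and LPA receptor families. It was 7.45% for Mrgprb5, 10.6% for Mrgprb4, 21.4% for Mrgpra3 and 22.2% for Mrgprx1, whose main matches were other Mrgpr genes and pseudogenes. The sequence of the first 3 genes was therefore almost wholly their own. Mrgpre still shared 48 stretches with Asb13 (44.5 to 85.8 TPM) and 37 with Ngfr (535 to 1341 TPM). Both were listed above Mrgpre in every sample, so its value may depend on how such reads were divided. The TPM values of the other 4 genes depend partly on how reads were divided. An identical stretch of each of these 4, the longest found with another Mrgpr coding sequence or, for Mrgprx1, with Gm18348, is shown in capitals with 12 flanking bases on each side, because reads that lie within it cannot be assigned by sequence.

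Mrgpra3 shared 76 identical bases with Mrgpra4, at coding positions 216 to 291 counted from the first base of its start codon.
Mrgpra3: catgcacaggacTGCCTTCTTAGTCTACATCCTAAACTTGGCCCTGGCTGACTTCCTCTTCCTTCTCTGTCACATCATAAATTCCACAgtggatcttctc
Mrgpra4: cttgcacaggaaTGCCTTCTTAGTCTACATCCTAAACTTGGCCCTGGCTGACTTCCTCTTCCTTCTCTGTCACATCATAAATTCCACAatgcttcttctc
Mrgprb4 and Mrgprb5 shared 57 identical bases near the end of the coding sequence.
Mrgprb4: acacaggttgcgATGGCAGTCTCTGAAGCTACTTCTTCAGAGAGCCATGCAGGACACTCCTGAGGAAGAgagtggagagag
Mrgprb5: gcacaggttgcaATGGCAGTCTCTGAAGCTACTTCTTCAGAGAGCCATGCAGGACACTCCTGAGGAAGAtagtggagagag
Mrgprx1 shared 82 identical bases with the transcript of the pseudogene Gm18348.
Mrgprx1: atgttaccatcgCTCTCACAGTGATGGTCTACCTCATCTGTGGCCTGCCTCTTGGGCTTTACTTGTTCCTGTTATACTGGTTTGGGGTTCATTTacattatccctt
Gm18348: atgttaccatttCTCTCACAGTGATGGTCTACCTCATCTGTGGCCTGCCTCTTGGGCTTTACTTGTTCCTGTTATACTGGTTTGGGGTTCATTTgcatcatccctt
In these 3 pairs the flanks already differ between the 2 genes, so reads that run past the stretch can tell them apart.

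**Figure D1:**
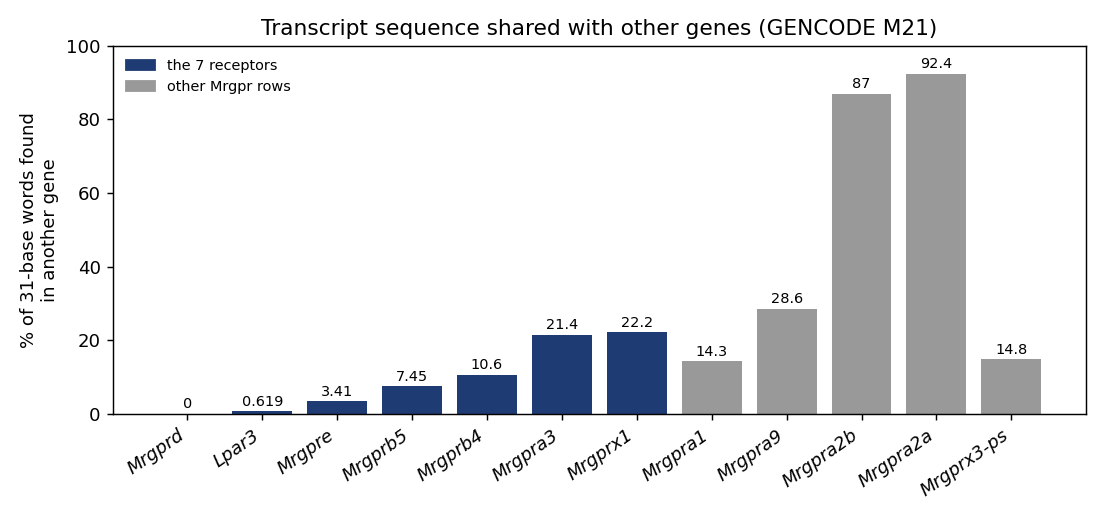
Percent of each gene's 31-base stretches that also occur in another gene (vertical axis), for the 7 receptors (dark bars) and 5 other Mrgpr rows (grey bars). The receptors run from 0 for Mrgprd to 22.2 for Mrgprx1, while Mrgpra2a and Mrgpra2b reach 92.4 and 87.0.

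Some near copies of the members were low in the same table, but not all. Mrgprb4 and Mrgprb5, each the main match of the other (4.88% and 5.76% of their stretches), were listed at levels near each other. Mrgprb12-ps, which holds 2.355% of the Mrgprb4 stretches, was listed between 0 and 1.23 TPM. Mrgpra4, which holds 14.5% of the Mrgpra3 stretches, was listed between 0 and 0.245 TPM, and Mrgpra14 between 0 and 0.581 TPM. Gm5734, which holds 4.98% of them, was higher at 6.73 to 17.3 TPM. Mrgpra2a and Mrgpra2b, which share 36 identical coding bases with Mrgpra3, stood at 6.55 to 26.2 and 33.4 to 67.4 TPM. Gm18348, the closest match of Mrgprx1, was listed at 0 in all 7 samples, as was Mrgprb7-ps, a pseudogene close to Mrgprb4. Mrgprc1-ps, which holds 7.39% of the Mrgprx1 stretches, was listed between 0 and 2.19 TPM, a range near that of Mrgprx1 itself. A row at 0 shows only that no reads were assigned to that copy.

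Some libraries stood apart before any receptor was compared. ZT20 replicates 3 and 4 had the Y-linked genes Ddx3y, Eif2s3y and Uty listed at 0 and Xist, the transcript of the inactive X chromosome, at 2.21 and 2.30 TPM, against their label as male. ZT20 replicate 2 held both Xist at 1.08 TPM and Ddx3y at 11.7 TPM. ZT8 replicate 2 had 18297 genes above 0 TPM, compared with 22541 to 25238 in the other 6 libraries. The library names are numbered at ZT20 and lettered at ZT8, so any difference in handling that goes with the names cannot be told apart from ZT. Receptor differences and counts over all lists are therefore also given without ZT20 replicates 3 and 4 and without ZT8 replicate 2.

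Mrgprd had the highest level of the 7 receptors in every sample. It stood at 73.6, 78.1, 113 and 98.7 TPM in the 4 ZT20 replicates and at 61.4, 48.2 and 67.7 TPM in those of ZT8. All ZT20 values lay above all ZT8 values, with ZT20 replicates 3 and 4 highest and ZT8 replicate 2 lowest. The group means were 90.9 ± 18.5 (SD, n = 4) and 59.1 ± 9.96 TPM (SD, n = 3). The log2 difference of TPM + 1, ZT20 minus ZT8, was 0.61 with a standard error (SE) of 0.19 and a 95% interval of 0.18 to 1.03. It did not pass the threshold of 0.05 (limma, adjusted p = 0.0599; unadjusted p = 0.0113). It was 0.36 with median-ratio scaling (limma, adjusted p = 0.161) and 0.38 with correction for transcript length and GC content (adjusted p = 0.143). Without ZT20 replicates 3 and 4 the difference was 0.37 (limma, adjusted p = 0.42), and without these and ZT8 replicate 2 it was 0.23 (adjusted p = 0.381).

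Lpar3, the LPA receptor of the Mrgprd neurons, came next in level. Its values were 47.0, 49.8, 70.5 and 59.6 TPM at ZT20 and 48.6, 33.3 and 52.0 TPM at ZT8. The groups overlapped, although the same 2 ZT20 replicates were highest and the same ZT8 replicate was lowest as for Mrgprd. The means were 56.7 ± 10.6 and 44.6 ± 9.93 TPM (SD, n = 4 and n = 3), and the log2 difference was 0.35 (SE 0.20, 95% interval -0.11 to 0.81; limma, adjusted p = 0.256). With median-ratio scaling it was 0.10 and with quantile normalisation 0.22. Without ZT20 replicates 3 and 4 it was 0.14, without ZT8 replicate 2 it was 0.15, and without all 3 it was -0.05.

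The ratio of Mrgprd to Lpar3 TPM varied less than either gene. It was 1.57, 1.57, 1.61 and 1.66 at ZT20 and 1.26, 1.44 and 1.30 at ZT8, with means of 1.599 ± 0.0425 (SD, n = 4) and 1.337 ± 0.0959 (SD, n = 3). The ratios of the groups did not overlap, and the difference between them was not tested.

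Mrgpra3 and Mrgprx1, the receptors of the itch neurons, differed widely in level. Mrgpra3 stood at 37.2, 28.4, 33.3 and 22.4 TPM at ZT20 and at 25.6, 23.8 and 29.7 TPM at ZT8. The ZT20 replicates held both the highest and the lowest of the 7 values, so the ZT8 values lay within their range. The means were 30.3 ± 6.39 and 26.4 ± 3.01 TPM (SD), with a log2 difference of 0.17 (SE 0.19, 95% interval -0.26 to 0.61; limma, adjusted p = 0.544). Its sign turned when the samples were scaled to a common median ratio (-0.07) or quantile-normalised (-0.04). Single libraries moved the difference both ways, to 0.07 without ZT20 replicate 1, 0.12 without ZT20 replicate 3, 0.11 without ZT8 replicate 2 and 0.31 without ZT20 replicate 4. It was 0.30 without ZT20 replicates 3 and 4, and 0.23 without these and ZT8 replicate 2.

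Mrgprx1 had the lowest mean of the receptors and was lowest in 6 of 7 samples. It was listed at 2.39, 0.689, 2.42 and 1.48 TPM at ZT20 and at 0.419, 0.163 and 0.779 TPM at ZT8. ZT20 replicate 2 fell within the ZT8 range and the other ZT20 replicates above it. The log2 difference was 0.88 (SE 0.34, 95% interval 0.11 to 1.65; limma, unadjusted p = 0.0293, adjusted p = 0.104). At these levels adding 1 TPM before the logarithm understates the change, and with a pseudocount of 0.1 the difference was 1.76. With quantile normalisation the difference was 0.42 (limma, adjusted p = 0.433). Without ZT20 replicate 1, or without replicate 3, its mean fell under the filter of 1 TPM and it was not tested, and the same held without ZT20 replicates 3 and 4. Without these and ZT8 replicate 2 the difference was 0.59 (limma, adjusted p = 0.459).

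Mrgprb4, the marker of stroking-responsive fibres, was listed at 3.45, 2.33, 5.32 and 3.79 TPM at ZT20 and at 0.828, 2.42 and 2.39 TPM at ZT8. ZT20 replicate 2 lay within the ZT8 range and the other 3 above it. The means were 3.72 ± 1.23 and 1.88 ± 0.911 TPM (SD), and the log2 difference was 0.73 (SE 0.33, 95% interval -0.01 to 1.48; limma, adjusted p = 0.149). Mrgprb5, its close relative, was listed at 2.35, 2.17, 3.48 and 3.13 TPM at ZT20 and at 1.28, 0.379 and 1.99 TPM at ZT8, without overlap. The means were 2.78 ± 0.623 and 1.22 ± 0.805 TPM (SD), and the log2 difference was 0.83 (SE 0.32, 95% interval 0.10 to 1.55; limma, unadjusted p = 0.0295, adjusted p = 0.104). The lowest ZT8 sample was replicate 1 for Mrgprb4 and replicate 2 for Mrgprb5, so these 2 genes that share sequence did not follow one another there. Without ZT20 replicates 3 and 4 and ZT8 replicate 2, the differences were 0.63 for Mrgprb4 and 0.32 for Mrgprb5, and without the 2 ZT20 replicates alone they were 0.48 and 0.63. Leaving out the lowest ZT8 sample of each gene alone, the difference was 0.43 for Mrgprb4 and 0.52 for Mrgprb5. With a pseudocount of 0.1 it was 1.03 and 1.35, and with quantile normalisation 0.46 and 0.40.

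Mrgpre, the receptor without a settled ligand, was listed at 9.04, 9.88, 11.1 and 11.0 TPM at ZT20 and at 10.6, 1.14 and 7.37 TPM at ZT8. The ZT20 replicates lay close together (10.3 ± 0.99 TPM, SD), whereas 1 ZT8 replicate was within their range, 1 slightly below it and replicate 2 far below. The log2 difference was 0.92 (SE 0.51, 95% interval -0.23 to 2.08; limma, adjusted p = 0.23). Without ZT8 replicate 2 it was 0.19 (limma, adjusted p = 0.507), so its size rested on that library. Without ZT20 replicates 3 and 4 it was 0.82, and without all 3 it was 0.08.

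**Figure D2:**
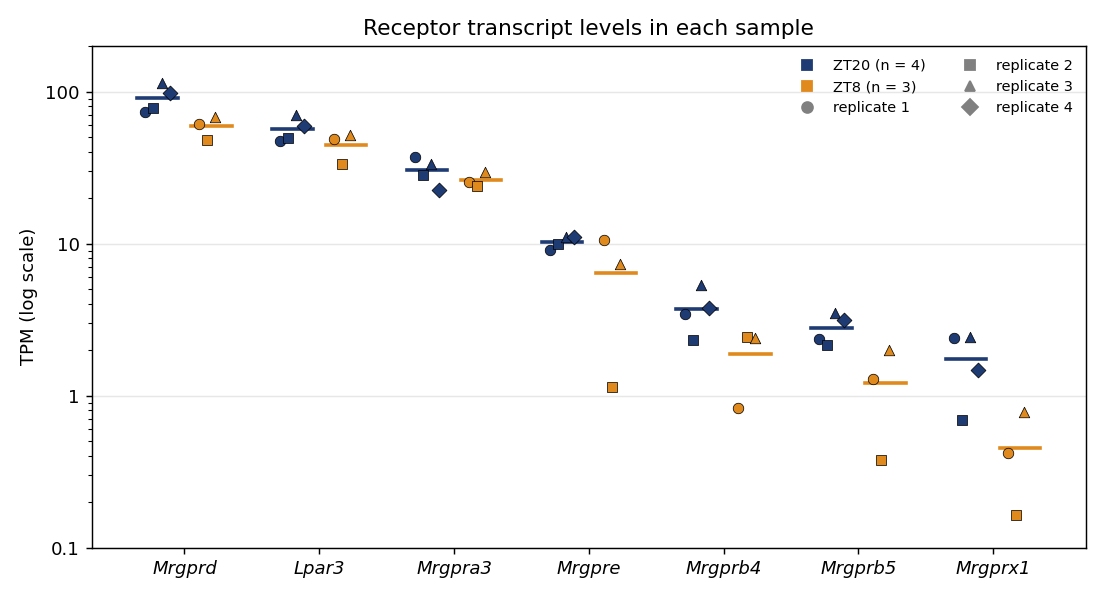
Level of each receptor in TPM (vertical axis, log scale) in the 4 ZT20 replicates (dark) and the 3 ZT8 replicates (orange), with the replicate number given by the symbol and the group mean by a bar. The groups do not overlap for Mrgprd and Mrgprb5, and the ZT8 square for Mrgpre stands at 1.14 TPM.

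Since TPM is scaled by transcript length, levels can also be compared between genes. Mrgprd exceeded Lpar3 in 7 of 7 samples, by 1.26 to 1.66 times, and Lpar3 exceeded Mrgpra3 in 7 of 7, by 1.26 to 2.66 times. Mrgpra3 exceeded Mrgpre in all samples as well, by 2.04 to 20.9 times. The lower steps did not hold throughout: Mrgpre over Mrgprb4, Mrgprb4 over Mrgprb5 and Mrgprb5 over Mrgprx1 each held in 6 of 7 samples. Within each group the ranges of Mrgprb4 and Mrgprb5 overlapped, as did those of Mrgprb5 and Mrgprx1, so the order of these neighbours was not larger than the spread between replicates. At ZT8 the ranges of Mrgprd and Lpar3 overlapped too, and those of Mrgpre and Mrgprb4. The spread at ZT20, as the coefficient of variation, ran from 9.68% for Mrgpre to 47.5% for Mrgprx1, and at ZT8 from 11.4% for Mrgpra3 to 75.6% for Mrgpre.

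Across the 7 receptors, 0 were called by limma at an adjusted p under 0.05, and 3 (Mrgprd, Mrgprb5 and Mrgprx1) had an unadjusted p under 0.05. Of the 14800 genes tested, 16.4% were called, 12.8% as higher and 3.61% as lower at ZT20, and 34.6% had an unadjusted p under 0.05, 26.0% of all as higher at ZT20. All 7 differences were positive, as were 66.4% of those of all tested genes. The groups did not overlap for 2 of 7 receptors, both higher at ZT20, compared with 24.5% of all tested genes. The median difference of the receptors was 0.73 on the log2 scale, and that of all tested genes was 0.23. With median-ratio scaling these medians were 0.55 and 0.02, with quantile normalisation 0.42 and 0.00, and with correction for transcript length and GC content 0.53 and -0.01. Without ZT8 replicate 2 they were 0.47 and 0.15, and without this library and ZT20 replicates 3 and 4 they were 0.23 and 0.10. Without ZT20 replicate 2 alone 0 receptors were called by limma, and their differences ran from 0.20 for Mrgpra3 to 1.10 for Mrgprx1. DESeq2 and edgeR were not run, because the table holds no counts.

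**Figure D3:**
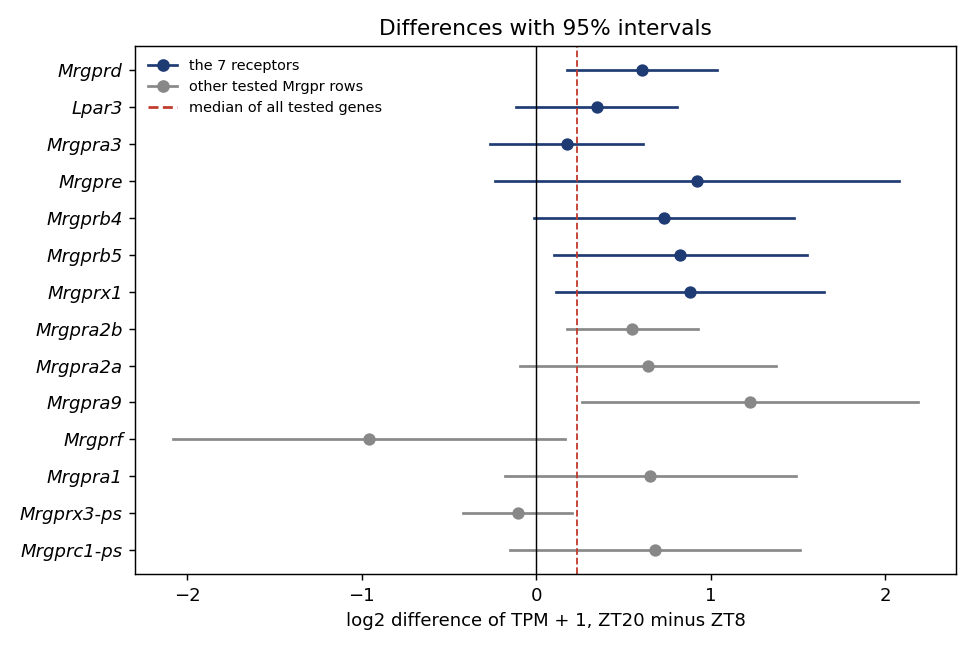
Log2 difference of TPM + 1, ZT20 minus ZT8 (horizontal axis), with its 95% interval, for the 7 receptors (dark) and the other tested Mrgpr rows (grey). The intervals of Mrgprd, Mrgprb5 and Mrgprx1 lie above 0, as do the grey intervals of Mrgpra2b and Mrgpra9. The dashed line is the median of all tested genes at 0.23.

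Markers of neurons and of other ganglion cells were examined beside the receptors. The score of 10 pan-neuronal markers, the mean of their log2(TPM + 1) centred over all samples, ran from 0.09 to 0.25 at ZT20 and from -0.46 in ZT8 replicate 2 to -0.10 at ZT8. Of these 10 markers 9 had a positive difference, compared with 66.4% of all tested genes, and 3 were called as higher at ZT20, compared with 12.8%. Their summed level overlapped between the groups, at 13622 to 15002 TPM at ZT20 and 11318 to 14370 TPM at ZT8. Of the 6 satellite glia markers 3 were called as lower at ZT20, compared with 3.61% of all tested genes, and 2, Kcnj10 (0.21) and Cdh19 (0.38), had a positive difference. They summed to 7483 to 9148 TPM at ZT20 and 12760 to 15466 TPM at ZT8, most of it from Apoe. Those of macrophages summed to 128 to 190.4 TPM and 192 to 447 TPM, with 1 of 6 tested markers (of 7 listed) called as lower, and no defining marker of these lists was at 0 in all samples. Plasma cell markers summed to 267 to 485 TPM and 496 to 933 TPM, with 1 of 4 tested (of 5 listed) called as lower. The 3 markers of low-threshold C fibres had negative differences of which 0 were called by limma and 1 had an unadjusted p under 0.05. Sums for Schwann cells, fibroblasts, endothelial, mast and erythroid cells overlapped between the groups. Of the 4 tested mast cell markers (of 6 listed) 2 had a positive and 2 a negative difference, and 1, Kit, was called as higher (1.07). Among the 4 peptidergic nociceptor markers 1 was called as higher, Adcyap1 (1.71), and among the 6 markers of large-diameter neurons 2 were called as higher, among them Nefh (1.36), and 3 had a negative difference. With the pan-neuronal score as a covariate, the differences of 6 of the 7 receptors turned negative, among them Mrgprd at -0.14 (limma, adjusted p = 0.772) and Lpar3 at -0.54 (adjusted p = 0.234), and that of Mrgprb4 was positive at 0.61. The medians of the receptors and of all tested genes were then -0.14 and -0.02. The score did not overlap between the groups and 2 of its 3 called markers, Scn9a and Scn10a, are sodium channels of nociceptors, so this fit cannot tell neuron content apart from ZT. The part of neuron or glia content in the receptor differences was not tested, and in bulk samples fewer cells of a type and less RNA per cell cannot be told apart.

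In the rest of the Mrgpr family, 15 genes were listed, 5 reached a mean of 1 TPM, and 0 were called. Of the 5, 2 had an unadjusted limma p under 0.05 (Mrgpra2b and Mrgpra9). Of all tested genes 16.4% were called and 34.6% had such a p. The median difference of the 5 was 0.64. Mrgpra2b, a relative of Mrgpra3, was the most abundant of them at 67.4, 65.9, 55.3 and 50.1 TPM at ZT20 and 41.8, 33.4 and 46.1 TPM at ZT8. The groups did not overlap, and the log2 difference was 0.55 (SE 0.17; limma, adjusted p = 0.0538). It was called with a filter of 5 TPM (limma, adjusted p = 0.0444), and was 0.31 with median-ratio scaling (adjusted p = 0.248). Mrgpra2b shares 538 identical coding bases in a row with Mrgpra2a, so the division of reads between them is uncertain, and their sum was 79.3 ± 11.96 TPM at ZT20 and 53.3 ± 11.96 TPM at ZT8 (SD). Mrgpra1 had 1.84 ± 0.498 and 0.919 ± 0.796 TPM (SD), with a difference of 0.66 (limma, adjusted p = 0.237), which was 0.24 without ZT8 replicate 2, where it was listed at 0, and 1.65 with a pseudocount of 0.1. Mrgprf, which is not restricted to neurons, was listed at 0.321 to 0.784 TPM at ZT20 and at 0.948, 6.79 and 0.922 TPM at ZT8, where replicate 2 set the mean (difference -0.96; limma, adjusted p = 0.201). Mrgprb2, the receptor of mast cells, was listed between 0 and 0.342 TPM.

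Among the 33 rows named Mrgpr, 7 were listed at 0 in all samples and 13 had a mean of at least 1 TPM. The 6 Mrgpr members summed to 128, 121, 169 and 140.5 TPM at ZT20 and 100.2, 76.1 and 109.9 TPM at ZT8, without overlap. Mrgprd alone held 20.7% to 33.6% of the sum over all 33 rows, and Mrgpra3 held 7.63% to 11.6%. The difference in the summed TPM was smaller over all rows (log2 difference 0.33) than over the 6 members (0.55), of which Mrgprd was the largest part. It was 0.558 for the members with the other listed Mrgpr genes, and 0.578 for Mrgpra2a and Mrgpra2b together. The pseudogene Mrgprx3-ps, which held 26.4% to 46.9% of the sum over all rows, had a difference of -0.11.

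Lpar3 was set beside 9 other genes of LPA receptors and LPA metabolism, of which 7 were tested. Of these 0 were called and 0 had an unadjusted limma p under 0.05, compared with 16.4% and 34.6% of all tested genes. The median difference of the 7 was 0.04. With the pan-neuronal score as covariate 1 of them was called as lower at ZT20, as were 157 of all 14800 tested genes. Lpar1, the LPA receptor of Schwann cells and other cells, had 91.6 ± 12.6 TPM at ZT20 and 94.8 ± 14.1 TPM at ZT8 (SD), a difference of -0.05 (limma, adjusted p = 0.849). Lpar5, the other LPA receptor linked to nociceptors, had 11.3 ± 3.62 and 8.46 ± 2.61 TPM (SD), a difference of 0.37 (limma, adjusted p = 0.366). This was 0.19 without ZT20 replicate 3, 0.21 without ZT8 replicate 1, 0.58 without ZT8 replicate 2, and 0.14 and 0.03 with median-ratio scaling and quantile normalisation. The levels of Lpar1 exceeded those of Lpar3 at both times.

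On the ligand side, 4 genes were listed, for precursors of peptides that act on Mrgpr receptors and for cathepsin S, a protease that activates some of them. Of these 3 were tested and 0 were called, with 1 unadjusted limma p under 0.05. Of all tested genes 16.4% were called and 34.6% had such a p. Penk, the precursor of BAM peptides, stood at 9.44, 7.64, 12.2 and 10.9 TPM at ZT20 and at 13.0, 21.2 and 15.9 TPM at ZT8, with all ZT8 values above all ZT20 values. Its difference of -0.67 (limma, adjusted p = 0.0737) did not pass the threshold, and 8.72% of all tested genes were lower at ZT20 without overlap. With median-ratio scaling 1 gene of this list, Penk, was called as lower at ZT20. With that scaling 1254 of all 14800 tested genes were called as lower, compared with 534 without it.

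Downstream of the receptors, part of the transduction list rose. Of 20 genes for the G proteins, phospholipases, channels and desensitising proteins used by Mrgpr signalling, 19 were tested, 9 were called as higher at ZT20 and 0 as lower, with a median difference of 0.64; of all tested genes 12.8% were called as higher. Gnaq, which encodes the G protein alpha subunit that couples many Mrgpr receptors to phospholipase C, rose from 52.8 ± 8.96 TPM at ZT8 to 201 ± 25.2 TPM at ZT20 (SD), a log2 difference of 1.91 (SE 0.15; limma, adjusted p = 0.00152). Its close relative Gna11 rose by 1.51 (limma, adjusted p = 0.00826), and Arrb1, a beta-arrestin, rose by 1.43 (adjusted p = 0.00657). Plcb3, a phospholipase C of nociceptors, rose by 0.73 (limma, adjusted p = 0.0454), with overlapping groups. Trpa1, the channel opened downstream of Mrgpra3 and Mrgprx1, had 16.7 ± 1.35 and 11.3 ± 3.18 TPM (SD), a difference of 0.56 that was not called (limma, adjusted p = 0.0871). With length and GC correction 2 of the 9 were called, and Arrb1 was 0.74, Gna11 1.14 (limma, adjusted p = 0.0729) and Plcb3 0.21 (adjusted p = 0.348). With the pan-neuronal score as covariate 2 were called, Gnaq at 2.50 and Gna11 at 2.62. Leaving out 1 library left 4 called without ZT20 replicate 3 or without replicate 4, 5 without ZT20 replicate 1 and 7 to 9 otherwise.

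Mrgprd and Lpar3 lie in nonpeptidergic neurons, and the other markers of these neurons were listed for comparison. All 12 listed markers were tested, 6 were called as higher at ZT20, compared with 12.8% of all tested genes, and 0 as lower, and their median difference was 0.55. Scn11a, a sodium channel of nociceptors, had 65.2 ± 8.20 TPM at ZT20 and 28.6 ± 6.94 TPM at ZT8 (SD), a rise of 1.18 (limma, adjusted p = 0.00769). Plxnc1, a semaphorin receptor, stood at 23.1, 29.0, 31.7 and 28.0 TPM at ZT20 and at 11.7, 12.2 and 12.1 TPM at ZT8, a rise of 1.15 (limma, adjusted p = 0.00479). Gfra1 and Ret, 2 parts of the receptor for glial cell line-derived neurotrophic factor, rose by 0.93 (limma, adjusted p = 0.0153) and 0.69 (adjusted p = 0.0222). P2rx3, the ATP-gated channel of these neurons, rose by 0.41 (limma, adjusted p = 0.0483), and Gfra2 had a difference of 0.50 (adjusted p = 0.229), which was 0.12 without ZT8 replicate 2. With length and GC correction 0 of the 12 were called by limma, and Scn11a was 0.62 (adjusted p = 0.0732), Plxnc1 0.49 (adjusted p = 0.0737), Gfra1 0.48 (adjusted p = 0.0651) and Ret 0.14 (adjusted p = 0.573). With median-ratio scaling 3 were called and P2rx3 was 0.16 (limma, adjusted p = 0.302), and with the pan-neuronal score as covariate 1 was called, Scn11a at 1.67, and Plxnc1 was 1.11 (adjusted p = 0.0828). Leaving out 1 library left 2 called without ZT20 replicate 3, 3 without ZT20 replicate 4 and 4 to 6 otherwise, and the call of P2rx3 was lost in 6 of the 7 fits. Within samples, the ratio of Mrgprd to P2rx3 TPM was 0.379 ± 0.0462 at ZT20 and 0.332 ± 0.0625 at ZT8, and that of Mrgprd to Plxnc1 was 3.25 ± 0.405 and 4.93 ± 0.865 (SD). The ratio to P2rx3 overlapped between the groups and that to Plxnc1 did not, and neither was tested.

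Other itch genes, which lie in part in neurons without Mrgpr members, gave 15 tested genes of 17, with 5 called as higher at ZT20, 0 as lower and a median difference of 0.57. Of all tested genes 12.8% were called as higher and 3.61% as lower. Cysltr2, a leukotriene receptor, rose from 2.25 ± 2.09 to 7.92 ± 1.22 TPM (SD), by 1.66 (limma, adjusted p = 0.0312). Sst, the peptide somatostatin of another itch population, rose by 1.61 (limma, adjusted p = 0.0262) and Htr1f, a serotonin receptor, by 1.23 (adjusted p = 0.0148). Osmr, a subunit of the interleukin-31 receptor, rose by 1.02 (limma, adjusted p = 0.045), and its partner Il31ra had a difference of 0.88 (adjusted p = 0.0523). Nppb, the itch peptide of these neurons, had a difference of 1.06 (limma, adjusted p = 0.0545). Of the 15 tested genes 5 had a negative difference, among them Nts, the peptide neurotensin, with 344 ± 112 TPM at ZT20 and 684 ± 293 TPM at ZT8 (SD), without overlap (difference -0.97; limma, adjusted p = 0.0628). With length and GC correction 3 genes were called, Cysltr2, Sst and Htr1f, and with the pan-neuronal score as covariate 0 were called by limma. With 1 library left out, 0 were called by limma without ZT20 replicate 3 or without ZT20 replicate 4, and 2 without ZT20 replicate 1 or without ZT8 replicate 3. The differences without ZT20 replicate 3 were 1.40 for Sst and 1.24 for Htr1f, and without replicate 4 they were 1.72 and 1.16. With a pseudocount of 0.1, 2 were called, and the calls of Cysltr2 (2.27; limma, adjusted p = 0.051), Sst (adjusted p = 0.0577) and Osmr (1.25; adjusted p = 0.0505) were lost, each with a larger difference and a larger SE.

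Of 11 regulators of nociceptor identity, 10 were tested, 5 were called as higher at ZT20 and 0 as lower, with a median difference of 0.61, where 12.8% of all tested genes were called as higher and 3.61% as lower. Runx1, the transcription factor on which expression of Mrgpr genes depends in nonpeptidergic neurons, stood at 18.1, 19.4, 24.5 and 17.1 TPM at ZT20 and at 4.58, 12.9 and 5.69 TPM at ZT8. The groups did not overlap, with ZT8 replicate 2 between the other ZT8 samples and ZT20, and the rise was 1.36 (SE 0.31; limma, adjusted p = 0.0231). Pou4f1, a factor of sensory neuron differentiation, rose by 1.32 (limma, adjusted p = 0.0146) and Prdm12, needed for nociceptor formation, by 1.11 (adjusted p = 0.015). Of the 10 tested genes 3 had a negative difference, and the largest in size was that of Tlx3, another factor of nociceptor differentiation, at -1.38 (limma, unadjusted p = 0.0473, adjusted p = 0.14). With length and GC correction 1 of the 10 was called, Prdm12, and Runx1 was 0.82 (limma, adjusted p = 0.154) and Pou4f1 0.89 (adjusted p = 0.112). With the pan-neuronal score as covariate 2 were called, Runx1 at 2.50 and Pou4f1 at 2.31, and Prdm12 was 0.61 (limma, adjusted p = 0.381). The call of Runx1 was also lost without a filter, with median-ratio scaling (1.13; limma, adjusted p = 0.0534), with quantile normalisation, with the replicate block (1.42; adjusted p = 0.0503) and in 5 of the 7 fits with 1 library left out, where its difference was 1.10 to 1.42. The count called in this list was 2 without ZT20 replicate 3 and 3 without ZT20 replicate 1, ZT20 replicate 4 or ZT8 replicate 3.

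**Figure D4:**
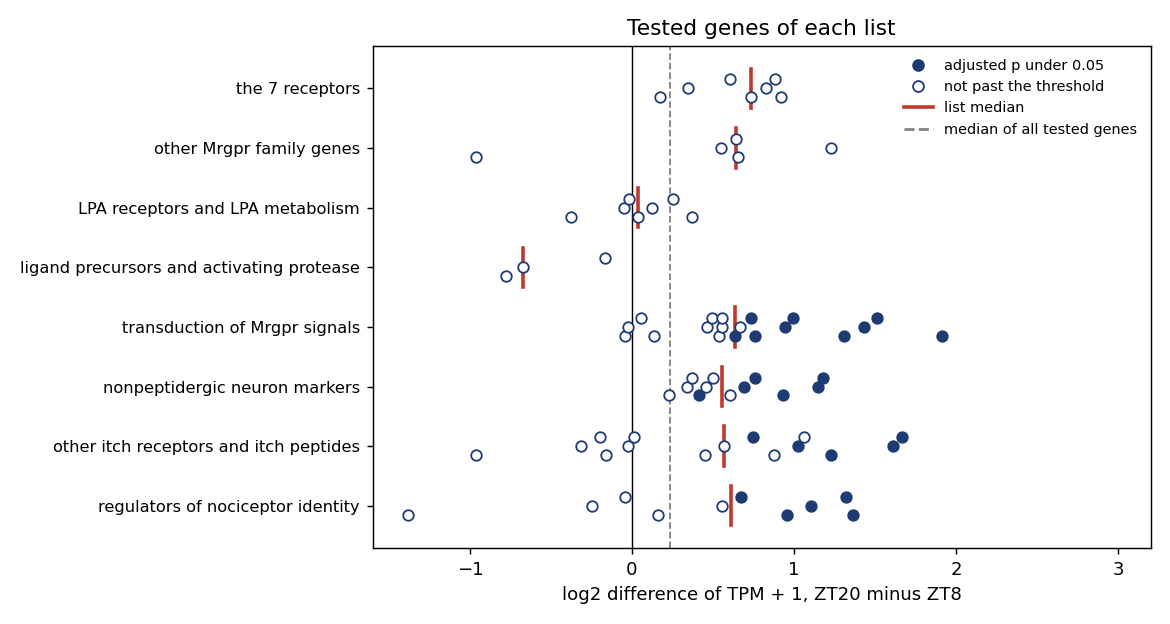
Log2 difference of TPM + 1, ZT20 minus ZT8 (horizontal axis), of each tested gene of the 8 lists (rows), filled where the adjusted p was under 0.05, with the list median in red and the median of all tested genes dashed. The receptors at the top have no filled point, while the transduction list has 9.

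Over these 7 lists 69 of 86 genes were tested, 24 were called as higher at ZT20 and 0 as lower, where 12.8% and 3.61% of all tested genes were so called. The difference between the lists and the receptors was not tested. With median-ratio scaling 1089 of all 14800 tested genes were called as higher and 1254 as lower, and of the lists 16 and 2. With correction for length and GC content 528 of 14745 were called as higher, and 6 of the lists. Without ZT20 replicates 3 and 4, 0 were called by limma, and 0 of all tested genes, of which 2378 had an unadjusted p under 0.05. The differences themselves were then 2.01 for Gnaq, 1.74 for Gna11, 1.64 for Pou4f1, 1.30 for Runx1, 1.05 for Plxnc1 and 1.05 for Scn11a. Without these and ZT8 replicate 2, 4 were called. Leaving out ZT20 replicate 1, 3 or 4 alone left 14, 8 and 10 called.

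For each receptor, the 3 genes with the most similar pattern over the 7 samples were taken by Pearson's r of log2(TPM + 1) among genes whose mean reached 5 TPM, as a description. For Mrgprd they were Slc25a27 (r = 0.984), Cobl (r = 0.981) and Magi1 (r = 0.981). Lpar3 was most like Mtfr1l (r = 0.99), Gm20075 (r = 0.987) and Grik1 (r = 0.98), the last a glutamate receptor subunit among the nonpeptidergic markers listed above. Mrgpra3 was most like Sting1 and Ubl5 (r = 0.927 for each) and Tmsb15b2 (r = 0.913), the lowest likeness of the 7. Mrgprb4 was most like Trpm4 (r = 0.986), Prps1l3 (r = 0.981) and Zfyve9 (r = 0.965), and Mrgprb5 like Mphosph8 (r = 0.996), Nup88 and Bean1 (r = 0.995 for each). Mrgprx1 was most like Sv2a (r = 0.985), Ppm1g (r = 0.983) and Utp6 (r = 0.981). For Mrgpre the closest were Polr3d and Ddx51 (r = 0.997 for each) and Zfp219 (r = 0.996), which were low in ZT8 replicate 2 as Mrgpre was. These values of r are the highest of about 10268 genes searched, over 7 samples in 2 groups that also differed in neuron markers, and carry no test.

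**Figure D5:**
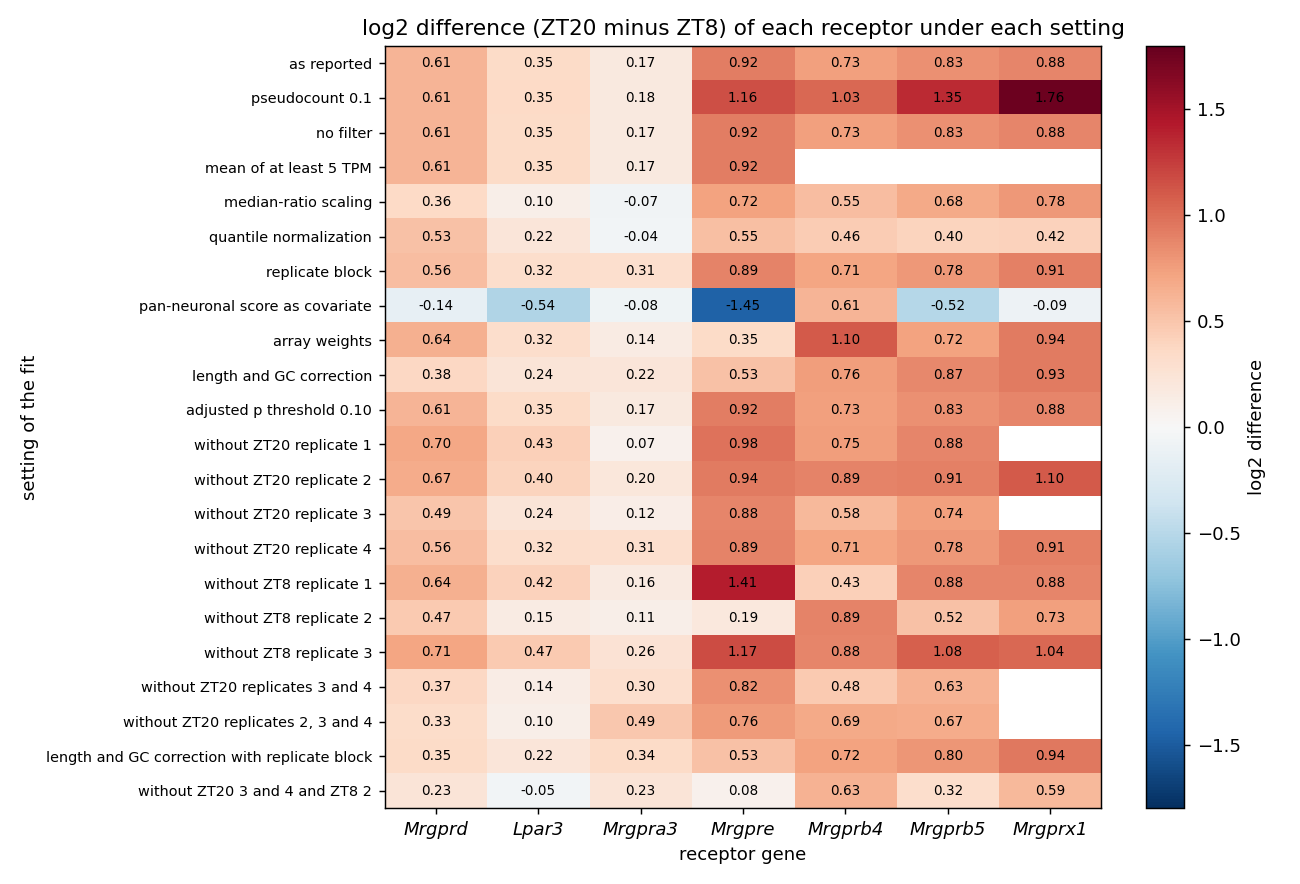
Log2 difference, ZT20 minus ZT8, of each receptor (columns) under each setting of the fit (rows), with red for higher and blue for lower at ZT20 and blank cells where the receptor was under the filter. The row with the pan-neuronal score as covariate is negative for 6 of the 7 receptors, and Mrgpra3 is also negative under both other scalings.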

How the data were processed

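The authors deposited 1 table of TPM values, estimated reads divided by transcript length and scaled so that each of the 7 sample columns sums to 1000000. The submitters' processing notes name FastQC 0.11.9, Trim Galore 0.6.6, Salmon 1.6.0, DESeq2 1.34.0 and GRCm39, without their roles. TPM keeps no read counts, so the depth behind each value is unknown. All 7 columns were mapped by name. The labels do not say that replicates came from separate animals, so p-values measure the spread between these samples.

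Values were tested as log2(TPM + 1) with limma 3.58.1 (lmFit, eBayes with trend, R 4.3.3), two-sided, over the 14800 genes whose mean reached 1 TPM, with Benjamini-Hochberg adjustment and no covariate. The procedure was tested on simulated data. Sequence sharing was computed on GENCODE M21 transcripts (GRCm38), another build than GRCm39, so no genome coordinates are given. Sums, ratios and likeness were computed in Python 3.11.15 and are descriptive.

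The members and lists were chosen with earlier results of these data known. The rule for naming genes took all 7 receptors, the 3 largest called differences of each list and 19 fixed genes, some of which are not reported here. Mrgpra2a, Mrgpra9, Mrgprb2, Penk, Nts, Tlx3, Mrgprx3-ps and single cell type markers were named after their values were seen. Alternatives covered pseudocount, filter, scaling, covariates, sample weights, length and GC content, threshold and left-out libraries.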

Additional observations from a re-analysis of the deposited data

Results flagged for a closer look

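Each of the 34 named genes was checked for a ZT20 sample far from the other 3, by the gap to its nearest neighbour as a share of the whole range, against Dixon's 95% critical value. Chance gives about 1.7 such genes in 34, and 3 were found, none of them among the 7 receptors. Gna11 in ZT20 replicate 2 stood at 165 TPM above 92.0 to 99.6 TPM in the others (share 0.896). Trpa1 in ZT20 replicate 3 stood at 18.7 TPM above 15.8 to 16.2 TPM (share 0.848). Gfra2 in ZT20 replicate 3 stood at 97.2 TPM above 78.9 to 80.5 TPM (share 0.913), and that replicate also had the highest Mrgprd and Lpar3 levels.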

How the results depend on the processing

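The number of genes called (2433) moved to 1178 without a filter, 556 with the pan-neuronal score as covariate, 3899 with sample weights, 1304 with length and GC correction, 4079 at a threshold of 0.10, 0 without ZT20 replicates 3 and 4, 0 without ZT20 replicates 2, 3 and 4 (1155 at an unadjusted limma p under 0.05; 1 ZT20 library then remains and is assumed to vary like ZT8, so this count says little), and 143 without ZT20 replicates 3 and 4 and ZT8 replicate 2. Leaving out 1 library gave 723 to 3047, lowest without ZT20 replicate 3, then 855 without replicate 4 and 1132 without replicate 1. The share of calls higher at ZT20 was 78.1%, and 46.5% with median-ratio scaling, 55.7% with quantile normalisation and 40.5% with length and GC correction.

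For the 7 receptors the count called was 0, and 2 with sample weights (Mrgprd, difference 0.64, and Mrgprb4, 1.10) and 1 at the threshold of 0.10 (Mrgprd, 0.61); it was 0 under every other alternative, including each left-out library. For the other lists it was 24, and 14 without a filter, 6 with the covariate, 6 with length and GC correction, 0 without ZT20 replicates 3 and 4, 0 without 2, 3 and 4 (with Gnaq still at 1.85), 4 without ZT20 replicates 3 and 4 and ZT8 replicate 2, and 8 to 24 with 1 library left out. Signs that turned with the covariate were Mrgprd -0.14, Mrgpra3 -0.078, Mrgprb5 -0.52, Mrgprx1 -0.086, Mrgpre -1.45, Lpar3 -0.54, Mrgpra1 -0.8, Mrgprf 1.04, Lpar1 0.16 and Gfra2 -0.76. Mrgpra3 also turned with median-ratio scaling (-0.067) and quantile normalisation (-0.044), Lpar3 without ZT20 replicates 3 and 4 and ZT8 replicate 2 (-0.054), and Lpar1 in 3 of the 7 fits with 1 library left out (range -0.17 to 0.031). The cause was not tested. Mrgprb4, Mrgprb5 and Mrgprx1 had no value under a filter of 5 TPM.

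Deviations of same-numbered samples correlated at -0.0141, 0.153 and 0.083, and those of differently numbered samples at -0.168 to 0.15. The samples numbered 2 had the highest value, and not every sample correlated best with its own number. These few correlations cannot decide whether the replicate numbers pair the samples. With the replicate block 1174 genes, 0 receptors and 12 genes of the other lists were called, and with the block and length and GC correction, an alternative added after seeing the data like the removal of 3 libraries, 520, 0 and 4. Depth is unknown, so the counting error of the receptors near 1 TPM is unknown.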

Other observations

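Mrgprx3-ps, annotated as a pseudogene, had the highest TPM of all rows named Mrgpr in 5 of 7 samples, at 88.9, 100.2, 104 and 77.6 TPM at ZT20 and 92.7, 109 and 96.6 TPM at ZT8. Its difference was -0.11 (SE 0.14; limma, adjusted p = 0.607). Of its stretches of 31 bases, 14.8% also occurred in another gene, mainly Mrgpra9 with 6.08%, so most of its sequence was its own in the annotation used. It was chosen after its values were seen.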
